A study of Mus musculus with 240 samples.

Results

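Oligodendrocyte precursor cells (OPCs) of wild-type mice were compared between 150 and 90 days post induction (dpi), counted from the start of tamoxifen. All bulk libraries labelled WT at these times were taken, 6 animals at 150 dpi and 5 at 90 dpi, each with 1 library. They are 11 of the 48 bulk libraries and 11 of the 240 libraries of a mouse study of the stages that precede glioma. The remaining libraries come from WT mice at 12 dpi (5 animals), from mice with the genotype Trp53-/- Nf1-/- (CKO) and their tumours, and from 192 small libraries, of 10 cells or pooled. The 150 dpi group held 4 males (WT_21590, WT_21591, WT_21592 and WT_21593) and 2 females (WT_22062 and WT_22064). The 90 dpi group held 3 females (WT_21167, WT_22184 and WT_22185) and 2 males (WT_22254 and WT_22255). Both groups are labelled wild-type and tdT positive, and both had tamoxifen. Neither carries the 2 deletions. Cells were cut from 10 µm brain sections by laser capture and their RNA was amplified linearly with T7 polymerase. The labels give no Cre driver, strain, age or brain region.

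OPCs are the dividing glial progenitors of the adult brain and are marked by the growth factor receptor Pdgfra. Some of them leave the progenitor state, pass through a committed stage marked by Gpr17, Bmp4 and Enpp6, and become myelinating oligodendrocytes. In adult wild-type brain this turnover is slow and falls with age. The comparison asks what changes in unmutated OPCs over an interval that ends at the time the study's tumours were taken.

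Library totals ran from 2316668 to 14781032 counts at 150 dpi and from 12028216 to 19310929 counts in 4 of the 5 animals at 90 dpi. WT_21167 held 93644 counts, so values without it are given for the calls and for the leading genes. Over the 48 genes given with a log2 change, none changed sign without it, and the largest shift was that of mt-Co3, from 1.28 to 1.01. Mean log10 totals over all 11 animals were close (6.71 ± 0.310, SD, n = 6, against 6.74 ± 0.995, SD, n = 5; exact two-sided permutation p = 0.968 over 462 assignments). Without WT_21167 the 90 dpi mean was 7.19 ± 0.107 (SD, n = 4) and the exact permutation p was 0.0238. Genes with a count above 0 numbered 17013 ± 1132 (SD, n = 6) at 150 dpi and 16834 ± 3471 (SD, n = 5) at 90 dpi, an exact permutation p of 0.965. Without WT_21167 the 90 dpi mean was 18375 ± 480 (SD, n = 4), the difference turned from 178.9 to -1362.3 genes, and the exact permutation p was 0.0571. All 16 OPC markers of the list used here were detected in both groups, with sums of 3384 to 4342 CPM (counts per 1e+06 of the TMM-scaled total) at 90 dpi and 2950 to 5990 CPM at 150 dpi. The 16 neuron markers and 15 astrocyte markers were detected too, with sums of 8939 to 13075 and 3582 to 5041 CPM. These sums are not scaled by transcript length. In such bulk samples fewer cells of a type and less RNA per cell cannot be told apart. Nf1, at 274 to 343 CPM at 90 dpi and 252 to 355 CPM at 150 dpi, and Trp53, at 9.48 to 29.4 and 11.3 to 33.7 CPM, overlapped between the groups. The 9.48 CPM of Trp53 is 1 count in WT_21167, and several bounds at 90 dpi below are the same 1 count. The 4 Y-linked genes matched the labelled sexes, with sums of 303 to 733 CPM in males and 0 to 14.4 CPM in females.

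At 150 dpi 2 animals stood apart, the males WT_21591 and WT_21592. Their scaling factors by the trimmed mean of M values (TMM) were 0.793 and 0.762, against 0.975 to 1.13 in the other 9 animals. Their ribosomal protein genes summed to 7571 and 7152 CPM, against 9843 to 16981 CPM elsewhere. Values without them are given beside several of the genes they move, not all, and the plot of list medians shows most lists without them.

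Across 16349 genes, WT OPCs at 150 dpi differed from those at 90 dpi at only 3 genes by edgeR's quasi-likelihood test (Benjamini-Hochberg adjusted p under 0.05, 0.0183% of genes tested). Of these 2 were higher at 150 dpi, Eno1b and Gm4735 (0.0122%), and Eno1 was lower (0.00612%). All 3 belong to 1 family of near-identical sequences. Eno1 encodes enolase 1, the glycolytic enzyme that forms phosphoenolpyruvate. Without WT_21167 the same 3 genes were called among 16784 tested (0.0179%, with 0.0119% higher and 0.00596% lower). At an unadjusted p under 0.05 there were 974 genes higher (5.96%) and 376 lower (2.30%). Without WT_21167 there were 968 higher (5.77%) and 436 lower (2.60%), 8.37% in all. The animals of the groups did not overlap at 79 genes higher (0.483%) and 64 lower (0.391%) at 150 dpi, or at 128 (0.783%) and 204 (1.25%) without WT_21167. DESeq2 called 20 genes, 16 of them with a near-identical copy, and limma with voom sample weights 16, of which 10 had one. Both included Eno1b, Gm4735 and Eno1. A fit to the 16 WT animals alone called 2 genes, Tagap1 and Gm3375, and none of these 3. The edgeR count was 1 without WT_22185, WT_22254 or WT_22255 in turn, and 6 without WT_22056, an animal at 12 dpi that shares in the estimate of the spread.

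Eno1b (chr18:48045335-48048378, GRCm38) is annotated as protein-coding. It was listed at 0 CPM in each of the 5 animals at 90 dpi. At 150 dpi its level ran from 31.7 CPM in WT_21592 to 125 CPM in WT_21593, with a median of 76.5 CPM (mean 76.1 ± 32.6 CPM, SD, n = 6). The groups did not overlap. Against a floor of 3 counts over the whole 90 dpi group the 150 dpi mean was at least 1619.8-fold higher. The edgeR adjusted p was 0.00100, and 0.00135 without WT_21167. The adjusted p for the log2 change of Eno1b was 0.197 with the 16 WT animals alone and 0.0539 with males alone. The fitted log2 change of 13.00 (SE 1.85) depends on the prior count and is no bound.

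Gm4735 is a processed pseudogene, a copy of a spliced messenger RNA set back into the genome (chr2:80837141-80838442). At 90 dpi it was at 0 in 4 animals and at 0.104 CPM in WT_22255. At 150 dpi it ran from 13.0 to 59.6 CPM with a median of 20.3 CPM, above every 90 dpi animal. The group totals of 1149 counts against 2 gave a ratio of 981 (95% exact interval 271 to 8112, counting error only). The edgeR adjusted p was 0.00523, and 0.00928 without WT_21167. For the log2 change of Gm4735 it was 0.0704, 0.0815 and 0.0861 without WT_22185, WT_22254 and WT_22255 in turn, 0.0651 with the 16 WT animals alone and 0.145 with males alone.

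Eno1 (chr4:150236721-150248879) had the reverse pattern. Its level at 90 dpi was 284 CPM in WT_21167 and 373, 406, 384 and 394 CPM in WT_22184, WT_22185, WT_22254 and WT_22255. At 150 dpi it ran from 91.8 CPM in WT_21592 to 214 CPM in WT_21590 with a median of 188 CPM. Every 150 dpi animal was below every 90 dpi animal. The level fell to 0.458 of that at 90 dpi (log2 change -1.13, SE 0.21, edgeR adjusted p = 0.0230), and the log2 change was -1.21 without WT_21167. Leaving out WT_21591 and WT_21592 gave -0.90 with an adjusted p of 0.309, so that call ended without them. The call on the log2 change of Eno1 also ended without WT_21591, WT_21592, WT_22062, WT_22185, WT_22254 or WT_22255 in turn, with adjusted p from 0.0704 to 0.138. It was 0.292 with the compared groups alone, 0.197 with the 16 WT animals alone, 0.890 with males and 0.111 with females alone. Among 14 genes of hypoxia and glycolysis Eno1 was the only edgeR call, and their median log2 change was -0.12.

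**Figure D1:**
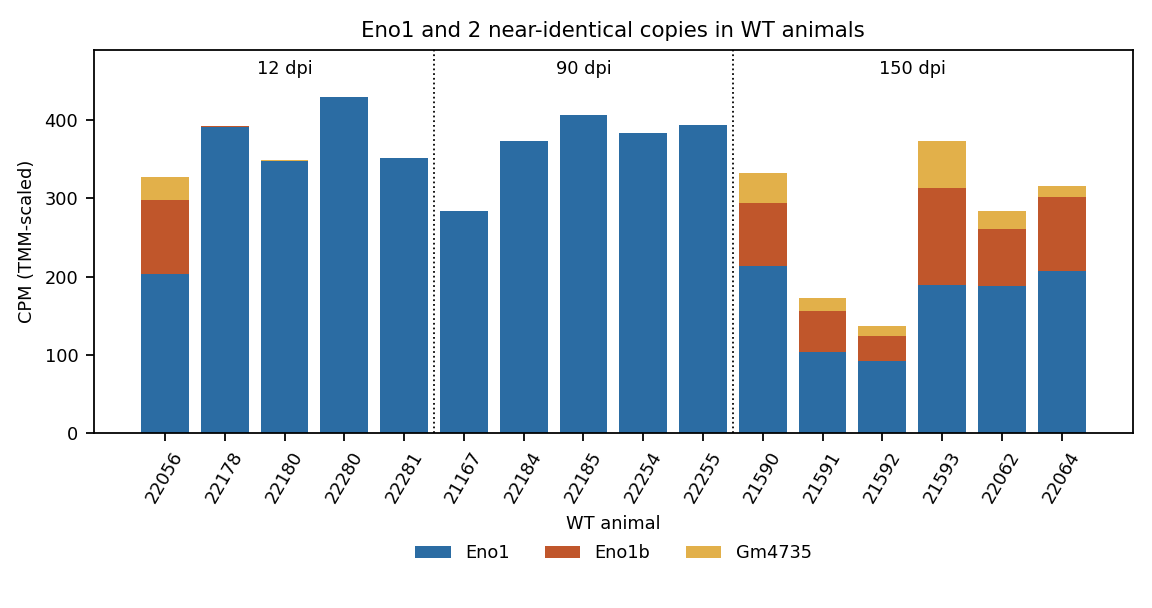
Level of Eno1 (blue), Eno1b (red) and Gm4735 (yellow) in each WT animal, stacked, in CPM on TMM-scaled totals; dotted lines separate 12, 90 and 150 dpi. Eno1b and Gm4735 are visible in all 6 animals at 150 dpi and in WT_22056 at 12 dpi, and in no animal at 90 dpi.

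The transcripts of this family differ at few bases, which decides how far a short read can be assigned to one of them. The Eno1 coding sequence of 1302 bases and Gm4735 differed at 5 bases (99.616% identity), and Eno1 and Eno1b differed at 8 bases over the same length (99.386%). The stretch from coding base 1144 to 1233 of Eno1 is shown with Gm4735 because it holds 2 of the 5 differences, in capitals (GENCODE M21 transcripts, GRCm38, plus strand for both).
Eno1: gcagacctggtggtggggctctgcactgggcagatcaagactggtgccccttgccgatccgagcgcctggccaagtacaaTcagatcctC
Gm4735: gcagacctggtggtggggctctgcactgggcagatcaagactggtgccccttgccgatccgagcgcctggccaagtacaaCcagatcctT
Counted from the 5′ end of the stretch, the differences are T81C and C90T. The authors' counts are RSEM expected counts, which share a read that fits several transcripts among them, so the level of each copy is uncertain and the sum over the family is less so. The family of 6 genes summed to 284 CPM in WT_21167 and to 373 to 406 CPM in the other animals at 90 dpi. At 150 dpi it summed to 173 and 137 CPM in WT_21591 and WT_21592 and to 284 to 373 CPM in the other 4. The groups overlapped only through WT_21167: without it the highest sum at 150 dpi (373.2 CPM, WT_21593) was just below the lowest at 90 dpi (373.3 CPM, WT_22184). When counts of near-identical genes were summed before the fit, the family had a log2 change of -0.44 (SE 0.21, edgeR adjusted p = 0.616), and -0.49 without WT_21167 (adjusted p = 0.564). In that fit no gene or family was called among 15119 (0% called), with or without WT_21167. At an unadjusted p under 0.05 there were 851 higher (5.63%) and 342 lower (2.26%), 7.89% in all, and DESeq2 was not run on the sums.

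Many of the leading genes had a near-identical copy. A copy was any transcript that matched at 95% identity or more along 50% or more of the shorter of the pair. One was found for 13.4% of the genes tested and for 18.7% of the 1350 genes at an unadjusted p under 0.05. It was found for 14 of the 20 genes with the smallest p and for all 7 with the smallest. The members of these 7 that missed the call were Tagap, Tagap1, AC099934.6 and Gm5815. Only a copy found with the gene's own transcript as query was counted, so these shares can be too low. Stmn2 had 0 copies counted, yet it belongs to a linked family of 640 genes. Tagap, AC099934.6, Gm5815, Gm3375, Rps2, Gpr17 and the parent genes Glcci1, Psmb5 and Txndc9 were chosen after their values were seen.

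**Figure D2:**
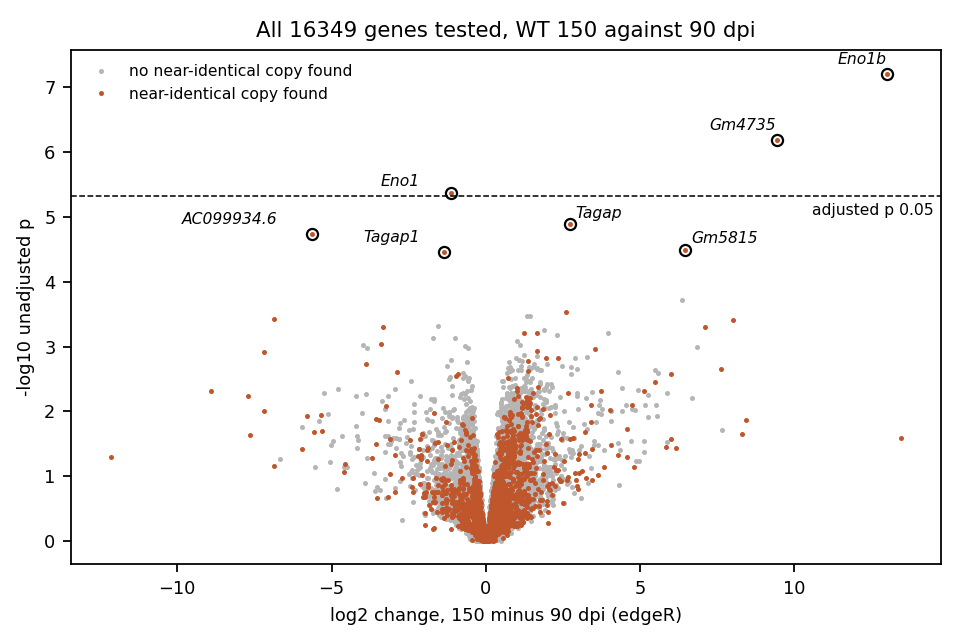
Log2 change at 150 against 90 dpi (horizontal) and -log10 of the unadjusted p (vertical) for each of the 16349 genes tested. Red points have a near-identical copy found with the gene's own transcript as query, and for grey points none was found. The 3 genes above the dashed line, Eno1b, Gm4735 and Eno1, and the next 4 circled genes are all red.

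Tagap and Tagap1, a pair on chromosome 17 that encodes a GTPase-activating protein of lymphocytes, had opposite values and no edgeR call over all animals. DESeq2 and limma called both, and edgeR called both without the tumours. Tagap (chr17:7926000-7934897) was at 0, 2.00, 0.847, 1.90 and 0.155 CPM in WT_21167, WT_22184, WT_22185, WT_22254 and WT_22255. At 150 dpi it ran from 5.67 to 11.0 CPM with a median of 7.47 CPM, without overlap (log2 change 2.71, SE 0.54, edgeR adjusted p = 0.0529, and 2.70 without WT_21167). Leaving out WT_22056 gave an adjusted p of 0.0191 for the log2 change of Tagap. Tagap1 (chr17:6954965-6961156) was at 36.2 to 55.3 CPM at 90 dpi and at 8.50 to 20.4 CPM at 150 dpi, again without overlap (log2 change -1.36, SE 0.29, adjusted p = 0.0816, and -1.36 without WT_21167). The aligned parts of the 2 transcripts were 99.024% identical over 2152 bases. A stretch of 90 bases from coding base 378 of Tagap1 is shown with its match in Tagap, since only 2 bases of it, in capitals, tell the transcripts apart.
Tagap1: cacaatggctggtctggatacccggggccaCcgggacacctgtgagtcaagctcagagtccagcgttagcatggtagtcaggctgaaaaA
Tagap: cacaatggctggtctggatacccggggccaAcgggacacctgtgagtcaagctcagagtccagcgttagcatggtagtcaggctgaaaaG
Counted in the same way the differences are C31A and A90G. The sum of the pair was 36.3 to 56.2 CPM at 90 dpi and 14.2 to 29.4 CPM at 150 dpi (log2 change -0.83, SE 0.25, edgeR adjusted p = 0.554). That sum did not overlap between the groups.

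Rps2, a protein of the small ribosomal subunit, and its processed pseudogene Rps2-ps13 on chromosome X had values in the same pattern as Eno1 and its copies. Rps2 was at 85.8 to 180 CPM at 90 dpi and at 15.3 to 59.4 CPM at 150 dpi (log2 change -1.63, SE 0.73, edgeR adjusted p = 0.558, and -1.55 without WT_21167). Rps2-ps13 was at 0, 0, 1.00, 0.257 and 0 CPM at 90 dpi in the order of the animals above, and at 20.4 to 130 CPM at 150 dpi (log2 change 8.01, adjusted p = 0.494). Neither gene overlapped between the groups and edgeR called neither over all animals. Rps2-ps13 was called by DESeq2 and by edgeR with the compared groups alone, and both genes were called in females alone. Rps2 has 28 near-identical copies by the same rule.

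Single pseudogenes showed the same kind of split while the gene they copy did not. Gm5815, a copy of Glcci1 on chromosome 17, had 121 counts in the 6 animals at 150 dpi (1.16 to 5.39 CPM) and 2 counts at 90 dpi. The ratio was 103 (95% exact interval 28.0 to 863, edgeR adjusted p = 0.0816). Gm3375, a copy of the proteasome subunit gene Psmb5 on chromosome 7, went the other way, with 3 counts at 150 dpi and 7.72 to 12.2 CPM at 90 dpi except in WT_21167, where it was at 0. The level at 90 dpi was 122 times that at 150 dpi (95% exact interval 41.6 to 594, adjusted p = 0.494). AC099934.6, a copy of Txndc9 on chromosome 12, had 1 count at 150 dpi and 119 at 90 dpi, a ratio of 69.7 (95% exact interval 12.3 to 2775, adjusted p = 0.0594). Over all animals edgeR called none of these copies, DESeq2 called Gm3375 and AC099934.6, and limma called Gm5815. Without the tumours, and also without WT_22056, edgeR called Gm5815 and AC099934.6. Psmb5 itself was at 27.8 to 74.7 CPM at 150 dpi and at 41.5 to 56.9 CPM at 90 dpi. Txndc9 was at 60.1 to 71.5 and 50.1 to 75.8 CPM, and Glcci1 at 28.5 to 115 and 19.0 to 44.6 CPM. The ranges of all 3 parent genes overlapped between the groups.

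These splits did not follow time alone. WT_22056, a male at 12 dpi, had Eno1b at 95.8 CPM, Gm4735 at 29.3, Rps2-ps13 at 155 and Gm5815 at 5.06 CPM. The other 4 animals at 12 dpi had at most 1.05, 1.00, 4.44 and 0 CPM of these genes. In the same animal Eno1 was at 203 CPM, against 349 to 430 CPM in the other 4, and Gm3375 was at 0, against 7.25 to 14.1 CPM. On 5 of these 6 genes WT_22056 lay within the 150 dpi range, and on Rps2-ps13 above it. Eno1b was above 3 counts in all 7 CKO animals at 12 dpi, all 7 at 90 dpi and all 7 tumours, at 29.4 to 155 CPM. Gm4735 was above 3 counts in all 7 CKO animals at each time and in 6 of 7 tumours. Rps2-ps13 was above it in all 7 CKO animals at 12 dpi, in 5 of 7 at 90 dpi and in 5 of 7 tumours. What sets the animals with these copies apart was not tested, and the labels give no batch.

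**Figure D3:**
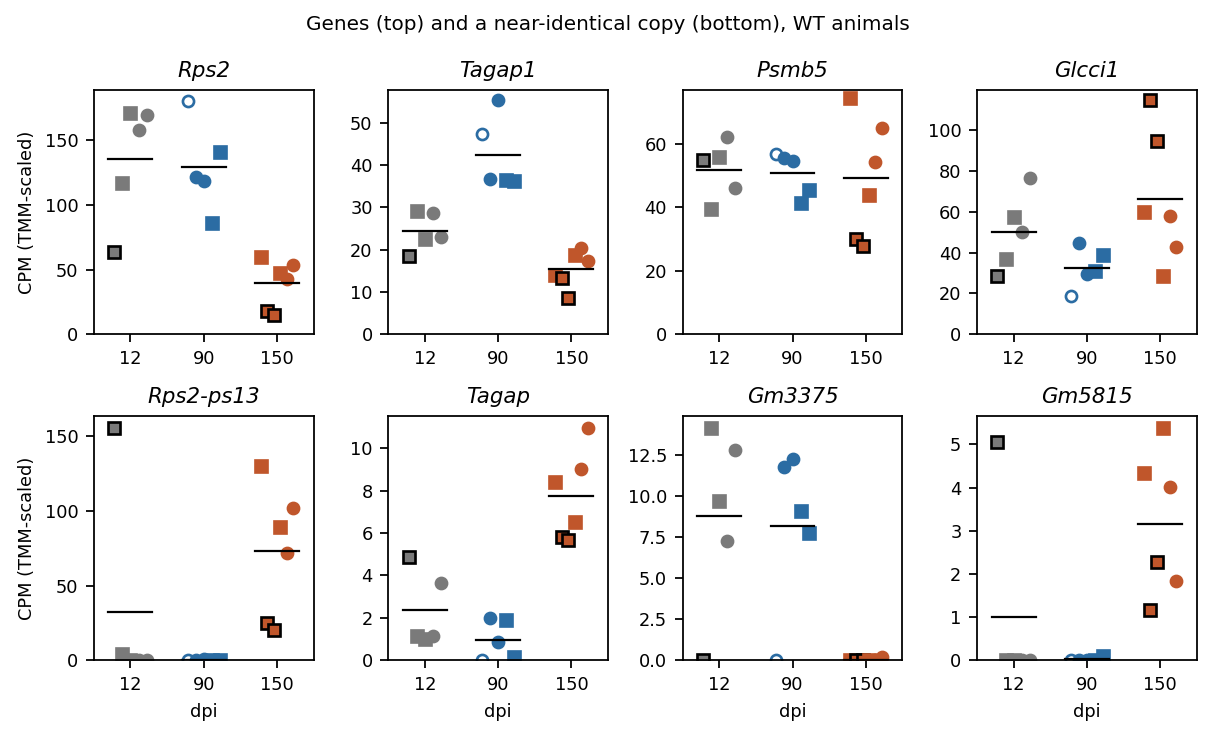
Level in CPM on TMM-scaled totals of 4 genes (top) and a near-identical copy of each (bottom) in WT animals at 12, 90 and 150 dpi; squares are males, circles females, the open circle is WT_21167, black outlines mark WT_22056, WT_21591 and WT_21592, and lines are group means. Rps2-ps13 and Gm5815 were high, and Gm3375 near 0, in the 6 animals at 150 dpi and in WT_22056.

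Outside such families edgeR called no gene over all animals, and the leading genes are given as values. DESeq2 called Hist1h1c and limma Dnajb11 among them. Among genes with a mean above the median and lower values at 150 dpi, Ust, a sulfotransferase of glycosaminoglycans, was at 45.4 to 73.6 CPM at 90 dpi and 29.3 to 43.4 CPM at 150 dpi (log2 change -0.68, SE 0.19, adjusted p = 0.517, and -0.67 without WT_21167). Dnajb11, a co-chaperone of the endoplasmic reticulum, was at 75.8, 110, 105, 98.5 and 84.0 CPM in the 90 dpi animals and at 46.3 to 80.8 CPM at 150 dpi (log2 change -0.57, SE 0.16). Its partner Hspa5 was at 310 to 478 and 190 to 382 CPM (-0.55, SE 0.23). Zfand2a, a stress-induced zinc finger protein, was at 55.1 to 75.8 and 30.6 to 51.3 CPM (-0.62, SE 0.18). Ust and Zfand2a did not overlap between the groups, as did 64 of all genes in that direction (0.391%). Of 13 heat shock genes, Hspa5 among them, 6 were positive and 7 negative, with a median of -0.19. Of 10 genes of the integrated stress response 7 were positive and 3 negative, with a median of 0.14. Neither list had an edgeR call.

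Of the genes with higher values at 150 dpi, several followed WT_21591 and WT_21592. Hist1h1c, a linker histone, was at 0 to 20.9 CPM at 90 dpi and at 11.9 to 70.8 CPM at 150 dpi, highest in these 2 animals (log2 change 1.43, SE 0.36, adjusted p = 0.494). Its log2 change was 0.89 without them. Irf2bpl, a transcriptional regulator that has a near-identical copy, was at 28.4 to 77.6 CPM at 90 dpi and at 256 and 538 CPM in the pair, against 61.9 to 117 CPM in the other 4 animals at 150 dpi. Its log2 change of 1.66 became 0.66 without the pair. Sh3bgrl, which also has one, was at 69.1 to 142 CPM at 90 dpi, at 1028 and 1225 CPM in the pair and at 90.7 to 329 CPM in the other 4. Its log2 change was 2.35 (SE 0.68), and 1.27 without the pair. Over all genes, both animals lay above the other 9 at 698 of the 974 genes with higher values (71.7%), against 15.6% of all genes tested. The 974 were selected by these same values as higher at 150 dpi, which raises that share. At these genes WT_21591 and WT_21592 were among the 2 highest animals at 78.9% and 82.6%, and each other 150 dpi animal at 7.49% to 10.1%. Leaving out WT_21591 and WT_21592 reduced the 974 to 268 (1.59%) and the 376 to 250 (1.49%), 3.08% in all, and Eno1b and Gm4735 were then the only calls (0.0119%).

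Progenitor and committed-stage markers were described as lists, whose members were chosen with earlier results of these data known. Of 16 OPC markers edgeR called none and 15 had a positive log2 change, with a median of 0.24 against 0.01 over all genes. Without WT_21591 and WT_21592 the median was 0.06, and without WT_21167 it was 0.21. With females alone it was -0.06, the opposite direction. Pdgfra was at 209, 320, 348, 371 and 335 CPM in the 90 dpi animals and ran from 246 to 712 CPM at 150 dpi with a median of 391 CPM. Its ranges overlapped, the 2 highest values were those of WT_21592 and WT_21591, and the log2 change of 0.34 (SE 0.27) was 0.04 without them.

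Committed-stage markers had no edgeR call, and 7 of the 10 had a negative log2 change (median -0.27, -0.33 without WT_21167 and -0.29 without WT_21591 and WT_21592, when none was positive). That median is smaller in size than the SD of the list between animals, 0.33. Tcf7l2, a transcription factor of the differentiating stage, was at 9.48 to 32.7 CPM at 90 dpi and 18.0 to 48.2 CPM at 150 dpi (log2 change 0.25, SE 0.24, and -0.09 without WT_21591 and WT_21592). Neu4, a sialidase, was at 75.8 to 112 and 59.8 to 152 CPM (log2 change 0.16, SE 0.46, and -0.13 without them). Enpp6, a choline phosphodiesterase of newly forming oligodendrocytes, was at 47.4, 36.9, 63.6, 68.8 and 82.6 CPM at 90 dpi and at 13.6 to 38.5 CPM at 150 dpi with a median of 29.2 CPM. The ranges overlapped at 1 animal of each group (log2 change -1.14, SE 0.52, unadjusted p = 0.0361, adjusted p = 0.567). Bmp4, a secreted growth factor, was at 0 in WT_21167 and at 11.7 to 20.9 CPM in the other animals at 90 dpi, all above the 4.08 to 8.41 CPM at 150 dpi (log2 change -1.09, SE 0.41, edgeR adjusted p = 0.517, and -1.16 without WT_21167). Gpr17, a receptor of the committed stage, was at 303 to 370 CPM at 90 dpi. It was at 158 to 238 CPM in 5 animals at 150 dpi and at 364 CPM in WT_21593 (log2 change -0.65, SE 0.33, adjusted p = 0.622). The summed list was 749 to 846 CPM at 90 dpi and 501 to 797 CPM at 150 dpi. Of the 17 markers of myelinating oligodendrocytes 8 were positive and 9 negative, with a median of -0.02. Their sums of 1964 to 2349 CPM at 90 dpi and 1866 to 3814 CPM at 150 dpi overlapped, and Ermn, a cytoskeletal protein of myelin-forming cells, was highest in WT_21591 at 199.9 CPM (log2 change 0.87, SE 0.49, and 0.24 without the pair).

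**Figure D4:**
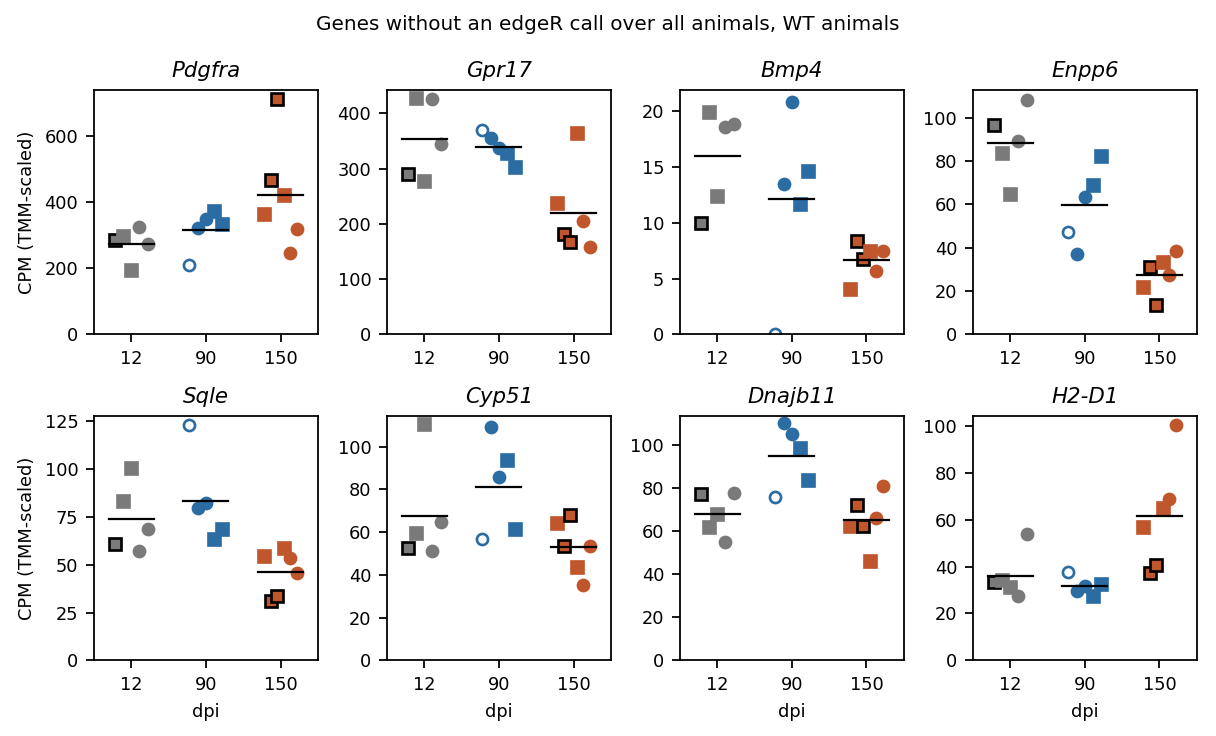
Level in CPM on TMM-scaled totals of 8 genes without an edgeR call in WT animals at 12, 90 and 150 dpi; symbols are as in the plot of copies, and lines are group means. Bmp4 at 150 dpi lay at 4.08 to 8.41 CPM, below 4 of the 5 animals at 90 dpi, and Pdgfra was highest in WT_21592 at 712 CPM.

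Cholesterol synthesis, which myelin-forming cells need, had 14 of 21 genes with a negative log2 change, a median of -0.18 and no edgeR call. At an unadjusted p under 0.05, 3 members were lower and none higher, beside 8.26% of all genes in either direction. Sqle, the squalene epoxidase, was at 63.7 to 123 CPM at 90 dpi and 31.0 to 58.6 CPM at 150 dpi without overlap (log2 change -0.75, SE 0.23, adjusted p = 0.517, and -0.67 without WT_21167). Cyp51, the lanosterol demethylase, was at 56.9 to 109 and 35.1 to 68.0 CPM (log2 change -0.69, SE 0.21), with WT_21167 lowest of its group. Sums of the list overlapped, at 948 to 1028 CPM against 785 to 1244 CPM.

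Cell division genes had no edgeR call. Of 20 mitosis genes 10 were positive and 10 negative, their sums were 34.8 to 74.7 CPM at 90 dpi and 29.4 to 72.8 CPM at 150 dpi, and the median was 0.01, or -0.44 with the 16 WT animals alone and -0.46 with males alone. Ccna2, a cyclin of the replication and early mitotic phases, was at 2.08 to 9.48 CPM and 2.67 to 11.9 CPM (log2 change 0.99, SE 0.36, adjusted p = 0.517). Ccnb1, the mitotic cyclin, was at 0 to 3.63 CPM at 90 dpi and at 0 to 0.580 CPM at 150 dpi (log2 change -3.33, SE 0.87, edgeR adjusted p = 0.512). DESeq2 called it, with an adjusted p of 0.0469 for the log2 change of Ccnb1. It has 3 near-identical copies and its level is uncertain. The sum over Ccnb1 and its copies had a log2 change of -3.23 (SE 0.86, edgeR adjusted p = 0.554). Of 20 DNA replication genes 16 were negative, with a median of -0.16 and sums of 247 to 305 and 215 to 316 CPM.

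Signalling and receptor genes had no edgeR call either. Spry1, an inhibitor of receptor tyrosine kinase signalling, was at 8.82 to 12.8 CPM at 90 dpi and 11.2 to 26.6 CPM at 150 dpi (log2 change 0.87, SE 0.33, adjusted p = 0.517, and 0.86 without WT_21167). Its log2 change was 0.63 without WT_21591 and WT_21592. Etv5, a transcription factor induced by the same signalling and a gene with a near-identical copy, was at 78.2 to 142 and 52.2 to 86.5 CPM (-0.81, SE 0.35). The 15 genes of that list, the output of the mitogen-activated kinase pathway, had a median of 0.24, 0.10 without WT_21591 and WT_21592, and -0.04 with females alone. Of 15 glutamate receptor genes Grik4 was at 0 to 5.75 and 5.72 to 12.8 CPM (log2 change 0.87, SE 0.31), and Grik1 at 7.97 to 17.5 and 1.97 to 8.41 CPM (-1.05, SE 0.38). Gria2, an AMPA receptor subunit, was at 1625 to 1895 CPM at 90 dpi and at 3923 and 4610 CPM in WT_21591 and WT_21592, against 1604 to 2406 CPM in the other 4 (log2 change 0.58, SE 0.25, and 0.16 without the pair). Atf3, an immediate early transcription factor, was at 8.86 to 29.4 CPM at 90 dpi, at 1.70 to 4.44 CPM in 5 animals at 150 dpi and at 14.2 CPM in WT_22064 (log2 change -1.78, SE 0.62, adjusted p = 0.517, and -1.80 without WT_21167). It had the most negative change of 20 immediate early genes, of which 15 were negative and 5 positive, Fos and Egr3 among the latter. Their median was -0.19, and 0.05 with females alone.

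Markers of other cell types are given beside these results. The 16 neuron markers had a median of -0.26 with no edgeR call, -0.10 without WT_21591 and WT_21592 and -0.01 with females alone. Nefh, a neurofilament, was at 9.48 to 20.7 CPM at 90 dpi and 3.67 to 14.0 CPM at 150 dpi (log2 change -1.07, SE 0.39), and Stmn2, a neuronal growth protein, at 56.9 to 95.0 and 45.9 to 69.2 CPM (-0.59, SE 0.25). In the other direction Gad1, the enzyme of GABA synthesis, was at 825 to 1071 and 1006 to 1994 CPM (0.45, SE 0.41), and Rbfox3, a neuronal splicing factor, at 141 to 196 and 181 to 249.6 CPM (0.27, SE 0.26). Of 15 astrocyte markers 12 were negative, with a median of -0.08. Gja1, the astrocyte gap junction protein, was at 79.1 to 152 and 81.9 to 455 CPM, highest in WT_21592 (log2 change 1.00, SE 0.56, and 0.47 without WT_21591 and WT_21592). Aqp4, the astrocyte water channel, was at 74.8 to 94.8 and 50.8 to 76.4 CPM (log2 change -0.52, SE 0.25), and Agt, angiotensinogen, at 0 to 3.86 and 0 to 1.61 CPM (-1.59, SE 0.79). Of 8 neuroblast markers 5 were positive and 3 negative, with no edgeR call. Their median was 0.22, and 0.06 without WT_21591 and WT_21592. Dlx2, a forebrain homeobox factor with the largest log2 change of this list, was at 45.0 to 61.0 CPM at 90 dpi. At 150 dpi it was at 174 and 177 CPM in WT_21591 and WT_21592 and at 70.9 to 93.9 CPM in the other 4, without overlap (log2 change 0.97, SE 0.49, edgeR adjusted p = 0.613, and 0.60 without the pair). In the other direction Nes had a log2 change of -0.32 (SE 0.44) and Cd24a one of -0.08 (SE 0.43), and both overlapped between the groups. Of 17 microglia markers 9 were positive and 8 negative, with a median of 0.06 and sums of 326 to 398 and 343 to 420 CPM. Tmem119, a microglial membrane protein with the most negative change of the list, was at 0 to 14.0 and 2.83 to 9.17 CPM (log2 change -1.10, SE 0.37, adjusted p = 0.517). In the other direction Gpr34 was at 3.14 to 9.48 and 1.98 to 14.2 CPM, highest in WT_21591, and Aif1 at 0 to 3.54 and 1.00 to 8.85 CPM. The part of these other cell types in the results above was not tested.

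**Figure D5:**
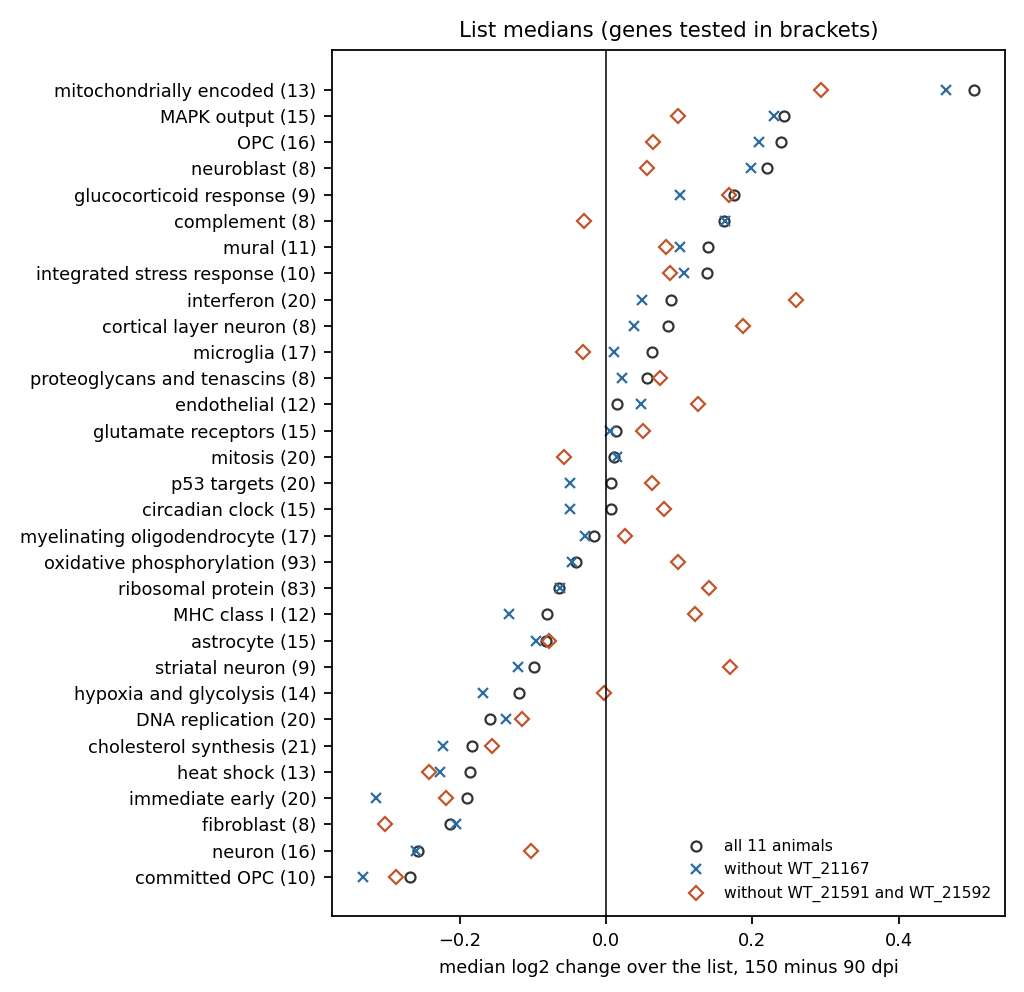
Median log2 change at 150 against 90 dpi (horizontal) for each gene list with at least 8 genes tested (vertical), over all 11 animals (circles), without WT_21167 (crosses) and without WT_21591 and WT_21592 (diamonds). The OPC median moved from 0.24 to 0.06 without WT_21591 and WT_21592, while the committed OPC median stayed at -0.27 to -0.33 in the 3 fits.

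The 13 protein-coding genes of the mitochondrial genome all had a positive log2 change, with a median of 0.50 and no edgeR call. Without WT_21591 and WT_21592 the median was 0.29 and 12 of the 13 were positive. Their sums were 17510.1 to 21736 CPM at 90 dpi, 16288 CPM in WT_21593 and at least 25590 CPM in the other 5 animals at 150 dpi, with a highest value of 35733 CPM. mt-Nd3, a subunit of complex I, was at 0 to 34.8 CPM and 17.3 to 442 CPM (log2 change 2.65, SE 0.89, adjusted p = 0.517), and mt-Co3, a subunit of cytochrome oxidase, at 0 to 1068 and 738 to 3039 CPM (1.28, SE 0.53). Both have near-identical copies and both were at 0 in WT_21167. mt-Co3 is no low gene, with 10349 to 14818 counts in the other animals at 90 dpi, and why it was at 0 in WT_21167 was not tested. Nuclear genes of oxidative phosphorylation had a median of -0.04 over 93 genes, and 83 ribosomal protein genes one of -0.06, which became 0.10 and 0.14 without WT_21591 and WT_21592.

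The step from 90 to 150 dpi was set against that from 12 to 90 dpi. The 2 steps share the 90 dpi animals. They differed at 2 of 16349 genes (0.0122%), Eno1b and Gm4735, with 889 genes at an unadjusted p under 0.05 (5.44%) and 8 genes called by DESeq2. From 12 to 90 dpi Eno1b was the only gene called (0.00612%, with 4.86% at an unadjusted p under 0.05). The 12 dpi means of both genes rested on WT_22056, with Eno1b at 95.8 CPM and Gm4735 at 29.3 CPM. The other animals at 12 dpi had at most 1.05 and 1.00 CPM. The test of the difference between steps had 1 call without WT_22056, WT_22184 or WT_22185 in turn and none without WT_22254 or WT_22255. Between 150 and 12 dpi edgeR called no gene (1339 at an unadjusted p under 0.05, 8.19%), DESeq2 called 22, and edgeR called 6 without WT_22056, 3 without WT_22178, 2 without WT_21590 and 1 without WT_22180 or WT_22184.

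Sex was tested by its interaction with time. EdgeR called none of 14313 genes (253 at an unadjusted p under 0.05, 1.77%), and DESeq2 called 2. EdgeR called 2 without WT_21591 or WT_21593 and 1 without WT_22184 or WT_22064. Within females alone, 2 animals against 3, 20 genes were called, and within males alone, 4 against 2, none. The labels do not say whether animals of a group shared a litter or a capture day. In the main fit the edgeR p-values for time rest on a spread per gene estimated over all 37 bulk animals. Those for the sex interaction rest on the 11 WT animals at 90 and 150 dpi.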

How the data were processed

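Per the submitters' processing notes, the authors used RSEM, Bowtie2 and GRCm38; versions and settings are not given in the sources used here. What the authors deposited is a table of RSEM expected counts, not normalized, for 34623 genes and 92 spike-ins, which were left out. Counts were rounded, libraries of 1 animal were summed, and all 37 bulk animals were fitted together with edgeR 4.0.16 (R 4.3.3): filterByExpr (minimum count 10, minimum total 15), TMM, sex as covariate, quasi-likelihood test, and a call at 0.05 after Benjamini-Hochberg adjustment over every gene tested. DESeq2 1.42.0, limma 3.58.1 and other filters, scalings and sample sets were alternatives. Single values were compared by two-sided exact permutation tests, whose smallest p is 0.004329 over all 11 animals. Near-identical copies were GENCODE M21 transcripts matched by megablast at 95% identity over 50% of the shorter one, linked into families; the largest joins 640 genes. Summing by family and leaving out WT_21591 and WT_21592 were added after seeing the data. The scripts were tested on simulated data. Named genes were all called genes, up to 8 uncalled genes of smallest p per direction with a mean above the median, and the extremes of each list. Members and lists were chosen with earlier results of these data known. Intervals cover counting error only.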

Additional observations from a re-analysis of the deposited data

Results flagged for a closer look

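Of 100 groups of 5 or 6 animals examined for a sample far from the others, 11 had one, and chance gives about 1 in 20. WT_21167 had 10669 genes detected, against 17952 to 18800 in the other animals at 90 dpi, and Eno1 at 284 CPM, against 373 to 406 CPM. It also had Gad1 at 825 CPM, against 1003 to 1071 CPM, and Psmb9 at 9.48 CPM, against 1.66 to 3.66 CPM. Its library is the smallest, and its Psmb9 value is 1 count.

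Other single samples far from their group were at very low levels. In WT_22255 Gm4735 and Gm5815 were at 0.104 CPM and at 0 in the other animals at 90 dpi. WT_22185 had Rps2-ps13 at 1.00 CPM, against 0 to 0.257 CPM. At 150 dpi AC099934.6 was at 0.0945 CPM in WT_21593 and Gm3375 at 0.204 CPM in WT_22064, with 0 in the others.

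Tmem119 was at 9.17 CPM in WT_21593, against 2.83 to 4.59 CPM in the other animals at 150 dpi. Atf3 was at 14.2 CPM in WT_22064, against 1.70 to 4.44 CPM. In the small libraries, of 10 cells or pooled, which enter no comparison here, Eno1b had a count in 137 of 192 libraries.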

How the results depend on the processing

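The count of 3 genes at 150 against 90 dpi was 20 with DESeq2, 16 with limma, 5 without the sex covariate, 7 without tumours, 6 with the compared groups alone and WT_21167 left out, 2 with the 16 WT animals alone, 0 with these and WT_21167 left out, 0 in males, 20 in females and 0 with copies summed, with or without WT_21167. Leaving out 1 animal gave 1 to 6. The difference between steps had 8 calls with DESeq2, 0 with the 16 WT animals alone and 0 to 3 when 1 animal was left out. At 150 against 12 dpi there were 22 with DESeq2, 1 without a filter, 1 without the sex covariate, 7 with the 16 WT animals alone and 0 to 6 when 1 animal was left out. The sex interaction had 2 with DESeq2, 4 without a filter and 0 to 2 when 1 animal was left out. The difference in log10 total ran from -0.477 to 0.101 when 1 animal was left out, and that in genes detected from -1362.3 to 670. Thinned to 93644 counts it was -283, and thinned to 2316668 counts without WT_21167 it was -233. The log2 change of Pdgfra was -0.025 with limma, -0.14 in females and -0.037 without WT_21167, WT_21591 and WT_21592. The log2 change of Tcf7l2 was -0.074 with limma, -0.092 without WT_21591 and WT_21592 and -0.13 without all 3 animals, and the log2 change of Neu4 was -0.24, -0.13 and -0.16. The cause was not tested. No paired analysis was possible because the WT groups share no animal numbers. Of 1515 values of 48 named genes, 1448 kept their direction and side of the threshold, 23 lost a call, 35 gained one and 9 reversed. With copies summed, named genes were not given single values. Of 222 list medians 26 moved beyond the spread between animals. The depth of WT_21167 limits its low genes, where 0 can be a missed count and 9.48 CPM is 1 count.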

Other observations

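Antigen presentation genes are given as values. All 7 genes of the class II complex, which presents antigen on immune cells, had a negative log2 change and edgeR called none (median -1.24, -0.93 without WT_21591 and WT_21592). Their sums were low, at 6.39 to 10.7 CPM at 90 dpi and 0.567 to 8.51 CPM at 150 dpi, and the groups overlapped. Of 12 class I genes 5 were positive and 7 negative, with a median of -0.08, which was 0.12 without WT_21591 and WT_21592. Psmb9, an immunoproteasome subunit, was at 1.66 to 9.48 CPM at 90 dpi and 0.567 to 2.29 CPM at 150 dpi (log2 change -1.26, SE 0.66). Tapbp, which loads peptide, was at 0 to 8.29 and 0.255 to 7.94 CPM (-0.98, SE 0.64). H2-D1, a class I heavy chain, was at 37.9, 29.5, 31.8, 27.4 and 32.6 CPM in WT_21167, WT_22184, WT_22185, WT_22254 and WT_22255. At 150 dpi it ran from 37.1 CPM in WT_21591 to 101 CPM in WT_22064 with a median of 60.8 CPM. The groups overlapped only through WT_21167 and WT_21591 (log2 change 1.01, SE 0.46, edgeR adjusted p = 0.558), and edgeR called it in females alone. Of 20 interferon genes 14 were positive, with a median of 0.09, 0.26 without WT_21591 and WT_21592 and -0.16 with males alone.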
